A study of Mus musculus with 6 samples.

Results

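The 31 genes described here encode enzymes and carriers that take fatty acids into mitochondria or peroxisomes and break them down. They were taken by symbol from a fixed list, and all 31 were found among the 32479 rows of the expression table. The RNA sequencing libraries are labelled as cardiac fibroblasts isolated from hearts of C57BL/6J mice, 3 from the Control group and 3 from the CCL4 group. Mice of the CCL4 group received carbon tetrachloride, a solvent that injures the liver, to model cirrhosis. The design text gives 3 mice per group, and nothing links mice of equal number across groups. The sources used here do not state dose, route and length of dosing, vehicle, age and sex of the mice or how the fibroblasts were isolated. The series asks how cirrhosis acts on the heart, and the 2 groups are set against each other here to see which of these genes differ.

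Long-chain fatty acids enter mitochondria as carnitine esters. Each turn of beta-oxidation then removes an acetyl unit by dehydrogenation, hydration, a second dehydrogenation and thiolysis, with separate enzymes for long, medium and short chains. The electrons of the first dehydrogenation pass through the electron transfer flavoprotein to the respiratory chain. Peroxisomes shorten very long and branched chains, and thioesterases cut acyl-CoA back to free acid. The heart draws most of its energy from this pathway, and heart muscle cells hold far more mitochondria than fibroblasts.

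Values are FPKM, fragments scaled to the length of the gene model and to the mapped fragments of the library, so levels of different genes can be set side by side per length. The summed FPKM was 519609 to 542738 in Control and 588660 to 602763 in CCL4 libraries, and the 37 rows of the mitochondrial genome held 48.6% to 50.7% and 52.0% to 53.2% of it. The label was checked against markers. Fibroblast genes were present in every library, with Col1a1 at 2.65 to 5.06 FPKM in Control against 15.9 to 17.8 in CCL4, Pdgfra at 3.47 to 4.71 and 3.47 to 3.68 FPKM, and Tcf21 at 1.96 to 2.66 and 2.72 to 2.85 FPKM. Cardiomyocyte genes were far more abundant. The 18 cardiomyocyte markers summed to 16763 to 19206 FPKM in Control against 21824 to 23829 in CCL4 libraries, with none at 0, against 465.1 to 752.4 and 605.7 to 618.7 FPKM for the 13 fibroblast markers. Muscle transcripts thus exceeded fibroblast transcripts in every library, so the values below cannot be read as those of fibroblasts alone. In such bulk RNA fewer cells of a type and less RNA per cell cannot be told apart. Of the cardiomyocyte markers 4 rose and 1 fell, and of the fibroblast markers 8 rose and none fell, where 9.64% of all tested rows rose and 22.2% fell. The higher cardiomyocyte sum in CCL4 rests mostly on Actc1, at 1735 ± 477 FPKM in Control and 5840 ± 261 FPKM in CCL4 (SD, n = 3 each). Myh7 fell from 955.3 ± 574 to 71.2 ± 9.84 FPKM, and 13 of the 18 markers were not called. The fibroblast sum rests mostly on Gsn and Dcn, neither of them called. The part of cell makeup in the differences of these markers was not tested.

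The oxidation genes were lower in CCL4 libraries, most of them genes of mitochondrial enzymes. Their summed FPKM was 4404, 4530 and 4459 in the Control libraries and 3206, 2924 and 3103 in the CCL4 libraries, so that the sum fell by 31.1% with no overlap of the groups. Of the FPKM outside mitochondrial rows they took 1.65% to 1.69% in Control and 1.06% to 1.11% in CCL4. Taken gene by gene with limma on log2(FPKM + 1), with Benjamini-Hochberg adjustment over 10995 tested rows, 21 of the 31 passed an adjusted p of 0.05 as lower and none as higher, and across the 4 other scalings tried 19 to 24 were lower and none higher. Among all tested rows 22.2% were called lower and 9.64% higher, 31.8% in all. Across the 4 other scalings 14.9% to 34.9% of tested rows were called lower. The median log2 fold change was -0.47 over the 31 genes and -0.09 over all tested rows. All CCL4 libraries lay below all Control libraries for 23 of the 31 genes and for 34% of tested rows, and above them for 1 of the 31 and for 14.7% of rows. The share of calls that were higher depended on scaling over the whole table. It was 30.3% as deposited, 13.4% after rescaling to a common sum (TPM), 20.3% with mitochondrial rows removed, 46.1% with trimmed mean of M-values (TMM) and 49.0% with median-ratio scaling. The median over all tested rows moved from -0.09 to -0.22 as TPM, so that an FPKM change near that size depends on the scaling.

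All 31 genes were expressed at 1 FPKM or more in every library, from 1.45 FPKM for Acot1 in a CCL4 library upward, so that none passed the low-value filter through 1 group alone. By mean over the 6 libraries they spanned 5.52 FPKM for Ehhadh to 462.8 FPKM for Ech1, and 19 lay in the top 5% of tested rows by level. Replicates lay close together. The coefficient of variation over 3 libraries had a median of 6.32% in Control and 4.73% in CCL4, and it was over 10% for 7 genes in Control and 5 in CCL4. The most variable gene in Control was Ehhadh at 33.2%, followed by Acot1 at 23.7% and Slc22a5 at 19.9%. No library held the highest value of its group throughout. Control replicates 1, 2 and 3 held it for 13, 8 and 10 of the 31 genes, and CCL4 replicates 1, 2 and 3 for 15, 6 and 10.

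**Figure D1:**
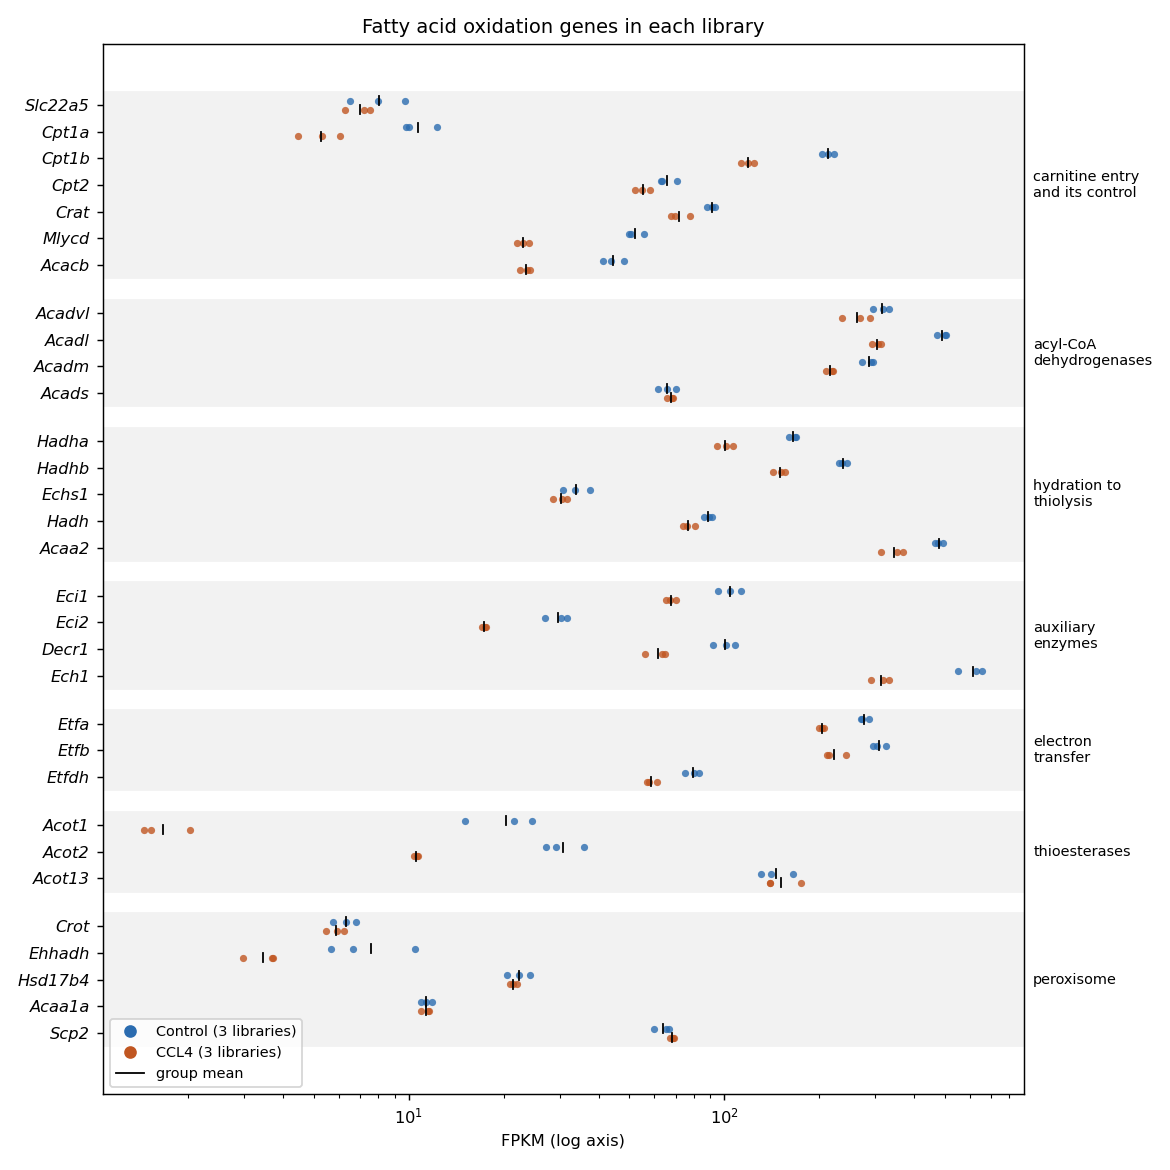
FPKM on a log axis of the 31 fatty acid oxidation genes, by pathway step, with a point for each of 3 Control and 3 CCL4 libraries and a black line at each group mean. The groups are apart for the electron transfer and auxiliary genes, while those of Acads, Acot13, Hsd17b4 and Acaa1a overlap.

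Of the 7 genes of carnitine entry and its control, 6 fell, where 22.2% of all tested rows did. Cpt1b, the muscle form of carnitine palmitoyltransferase 1, which makes the carnitine ester at the outer membrane and sets the pace of entry, was at 203.9, 222.2 and 212.5 FPKM in Control against 124.4, 113.2 and 118.9 in CCL4. Its groups were far apart, and it fell by 44.2% (log2 fold change -0.84 ± 0.08, SE; adjusted p = 0.000315, limma). Cpt1a, the form that leads in liver and in many non-muscle cells, was at 9.98, 9.77 and 12.3 FPKM in Control against 4.45, 6.04 and 5.31 in CCL4. It stood far below Cpt1b in every library and fell by 50.7% (log2 fold change -0.90 ± 0.12, SE; adjusted p = 0.00146). Cpt1a therefore made up a small part of the pair in both groups, 4.67%, 4.21% and 5.46% of their summed FPKM in Control and 3.45%, 5.07% and 4.27% in CCL4. The libraries of the groups overlapped, and the shares of 4.78% ± 0.634 and 4.27% ± 0.807 (SD, n = 3 each) did not differ beyond their spread (two-sided exact permutation test, p = 0.5; adjusted p = 0.5 over 5 ratios). In GENCODE M21 on GRCm38, Cpt1b lies on chromosome 15 at 89416405 to 89425863 on the minus strand and Cpt1a on chromosome 19 at 3322334 to 3385733 on the plus strand. The Cpt1b model shares 81.4% of its exonic bases with Gm44502, a protein-coding model on the same strand, whose own row held 1.02 to 8.1 FPKM over the 6 libraries. The sources used here do not state how StringTie divided fragments between these models.

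Malonyl-CoA, the inhibitor of carnitine palmitoyltransferase 1, is made at the outer mitochondrial membrane by acetyl-CoA carboxylase 2 (Acacb) and removed by malonyl-CoA decarboxylase (Mlycd). Both genes fell. Mlycd was at 55.4, 49.8 and 50.7 FPKM in Control against 22.0, 23.0 and 24.0 in CCL4. Acacb was at 47.9, 43.8 and 41.2 FPKM in Control against 22.4, 24.2 and 23.7 in CCL4. For each, every CCL4 library lay far below the lowest Control library. Mlycd fell by 55.7% (log2 fold change -1.14 ± 0.08, SE; adjusted p = 0.000114) and Acacb by 47.1% (-0.89 ± 0.08; adjusted p = 0.000326). The log2 ratio of Acacb to Mlycd was -0.23 ± 0.06 in Control and 0.03 ± 0.05 in CCL4 (SD, n = 3 each), with the libraries of the groups apart. This difference of 0.26 had an exact permutation p of 0.1, the smallest that 3 against 3 libraries allow, and an adjusted p of 0.167 over 5 ratios.

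The remaining entry genes moved less. Crat, the carnitine acetyltransferase that buffers acetyl-CoA, was at 93.6, 91.6 and 88.1 FPKM in Control against 69.7, 67.8 and 77.7 in CCL4 and fell by 21.2% (adjusted p = 0.0143). Its call was lost without CCL4 replicate 2 (log2 fold change -0.30, adjusted p = 0.0567). Cpt2, which turns the carnitine ester back to acyl-CoA on the inner membrane, was at 70.5, 63.4 and 62.9 FPKM in Control against 58.1, 52.1 and 54.9 in CCL4 and fell by 16.1% (adjusted p = 0.0488). That call was lost when any 1 library was left out, with adjusted p from 0.0533 to 0.152. Slc22a5, the plasma membrane carnitine carrier OCTN2, was at 9.72, 6.52 and 7.95 FPKM in Control against 6.26, 7.51 and 7.22 in CCL4. Its groups overlapped and it was not called (log2 fold change -0.17, 95% interval -0.47 to 0.13; adjusted p = 0.353). Of its transcript's 31-base words 36.5% also occur in Slc22a21, a neighbouring carnitine carrier gene that held 0.25 to 0.49 FPKM.

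Acyl-CoA dehydrogenases carry out the first oxidation, and each prefers its own chain length. Acadl, which acts on long chains, was at 470.4, 500.4 and 501.9 FPKM in Control against 313.7, 293.4 and 306.4 in CCL4. Acadm, the medium-chain enzyme, was at 272.7, 291.3 and 295.1 FPKM in Control against 210.5, 219.0 and 220.3 in CCL4. The groups did not overlap for either gene, and Acadl fell by 38% (log2 fold change -0.69 ± 0.07, SE; adjusted p = 0.000572) and Acadm fell by 24.4% (-0.40 ± 0.07; adjusted p = 0.00541). Acadvl, the very-long-chain enzyme of the inner membrane, was at 332.9, 317.4 and 294.9 FPKM in Control against 288.3, 235.4 and 268.4 in CCL4. All CCL4 libraries lay below all Control libraries, but by a margin of a few FPKM, and the gene was not called (-0.26, 95% interval -0.48 to -0.04; adjusted p = 0.0741). It was called lower as TPM (-0.41, adjusted p = 0.0121) and with mitochondrial rows removed (-0.33, adjusted p = 0.0233). Acads, the short-chain enzyme, was at 70.1, 65.9 and 61.8 FPKM in Control against 68.2, 65.9 and 68.7 in CCL4. Its groups overlapped throughout, with a log2 fold change of 0.04 (95% interval -0.14 to 0.21; adjusted p = 0.737) that turned to -0.12 as TPM and -0.04 with mitochondrial rows removed. The differences between these 4 genes were not tested. The exons of Acadvl overlap those of Dvl2 on the opposite strand over 42.9% of their length, but Dvl2 held only 1.3 to 2.79 FPKM.

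Hadha and Hadhb encode the 2 subunits of the mitochondrial trifunctional protein, which takes long-chain intermediates through hydration, the second dehydrogenation and thiolysis. The genes lie head to head on chromosome 5, Hadha at 30118304 to 30155162 on the minus strand and Hadhb at 30155248 to 30184593 on the plus strand. The 85 bases between their annotated ends, chr5:30155163-30155247 in GRCm38, are shown because both subunits are transcribed away from them, read 5′ to 3′ on the Hadhb strand from the RefSeq promoter window of GRCm38.p6.
Hadha to Hadhb: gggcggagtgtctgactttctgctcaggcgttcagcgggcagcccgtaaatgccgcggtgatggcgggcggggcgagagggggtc

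Both trifunctional genes fell together. Hadha was at 160.3, 168.4 and 167.1 FPKM in Control against 106.6, 94.8 and 100.8 in CCL4. Hadhb was at 230.6, 244.8 and 235.2 FPKM in Control against 151.2, 143.0 and 155.5 in CCL4. Hadha fell by 39.1% and Hadhb fell by 36.7% (log2 fold changes -0.71 ± 0.08 and -0.66 ± 0.07, SE; adjusted p = 0.000577 and 0.00069), with the groups well apart for both. The log2 ratio of Hadha to Hadhb was -0.52, -0.54 and -0.49 in Control and -0.50, -0.59 and -0.63 in CCL4. These ratios overlapped, and the difference of -0.06 did not exceed the spread (exact permutation p = 0.3; adjusted p = 0.375 over 5 ratios). Of the Hadhb transcript's 31-base words 64.7% also occur in Gm13910, a separate GENCODE model, so its level is less certain than that of Hadha.

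The matrix enzymes that finish shorter chains were split. Acaa2, the thiolase of the last step, was at 465.9, 476.1 and 492.6 FPKM in Control against 367.5, 312.8 and 353.2 in CCL4, and fell by 28% (log2 fold change -0.47 ± 0.08, SE; adjusted p = 0.00508). Hadh, the dehydrogenase for medium and short chains, was at 86.4, 91.2 and 89.1 FPKM in Control against 76.1, 73.8 and 80.5 in CCL4. The groups were apart but it was not called (-0.21, 95% interval -0.38 to -0.04; adjusted p = 0.0583), and it was called lower as TPM (adjusted p = 0.00676) and with mitochondrial rows removed (adjusted p = 0.0221). Echs1, the short-chain hydratase, had overlapping groups at 30.7 to 37.5 FPKM in Control against 28.7 to 31.7 in CCL4 (-0.15, 95% interval -0.36 to 0.06; adjusted p = 0.233), and was called lower as TPM (-0.31, adjusted p = 0.0477).

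All 4 auxiliary enzymes, which move or reduce the double bonds of unsaturated fatty acids so that they can enter the cycle, fell. Of all tested rows 22.2% were called lower, and in 34% all CCL4 libraries lay below all Control libraries. Ech1, the dienoyl-CoA isomerase and the most abundant of the 31 genes, was at 551.2, 655.3 and 628.8 FPKM in Control against 331.6, 291.9 and 318.4 in CCL4. Its lowest Control library lay far above its highest CCL4 library, and it fell by 48.7% (log2 fold change -0.96 ± 0.09, SE; adjusted p = 0.000398). The gene lies on chromosome 7 at 28825217 to 28832247. Decr1, the dienoyl-CoA reductase, was at 92.0, 101.0 and 108.0 FPKM in Control against 63.6, 55.9 and 64.6 in CCL4 and fell by 38.9%. Of the enoyl-CoA isomerases, Eci1 was at 103.8, 113.0 and 95.3 FPKM in Control against 70.2, 65.1 and 67.2 in CCL4. Eci2, which also works in peroxisomes, was at 26.9, 30.4 and 31.7 FPKM in Control against 17.5, 17.4 and 17.1 in CCL4. No pair of groups overlapped, and Eci1 fell by 35.1% and Eci2 fell by 41.6% (adjusted p = 0.00173 and 0.000674). Summed over the 4 genes the level was 845.7 ± 64.9 FPKM in Control and 460.1 ± 27.0 FPKM in CCL4 (SD, n = 3 each), so that it fell by 45.6%.

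The electron transfer genes fell by closely similar amounts. Etfa and Etfb, the subunits of the flavoprotein that collects electrons from the acyl-CoA dehydrogenases, were at 286.4, 273.2 and 270.1 FPKM and at 324.0, 305.5 and 295.3 FPKM in Control. In CCL4 Etfa was at 206.8, 199.6 and 203.9 FPKM and Etfb at 242.8, 212.1 and 214.3 FPKM. Etfdh, the oxidoreductase that hands those electrons to ubiquinone, was at 79.8, 75.2 and 83.0 FPKM in Control against 57.8, 56.7 and 60.9 in CCL4. None of the 3 overlapped between groups, where 34% of all tested rows had all CCL4 libraries below all Control libraries. Their log2 fold changes were -0.44 ± 0.07, -0.47 ± 0.08 and -0.43 ± 0.07 (SE; adjusted p = 0.00309, 0.00537 and 0.00448). Etfdh fell by 26.3%, Etfa fell by 26.4% and Etfb fell by 27.6%. Of the Etfb transcript's 31-base words 68.0% also occur in Gm45233, a model on the same strand.

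**Figure D2:**
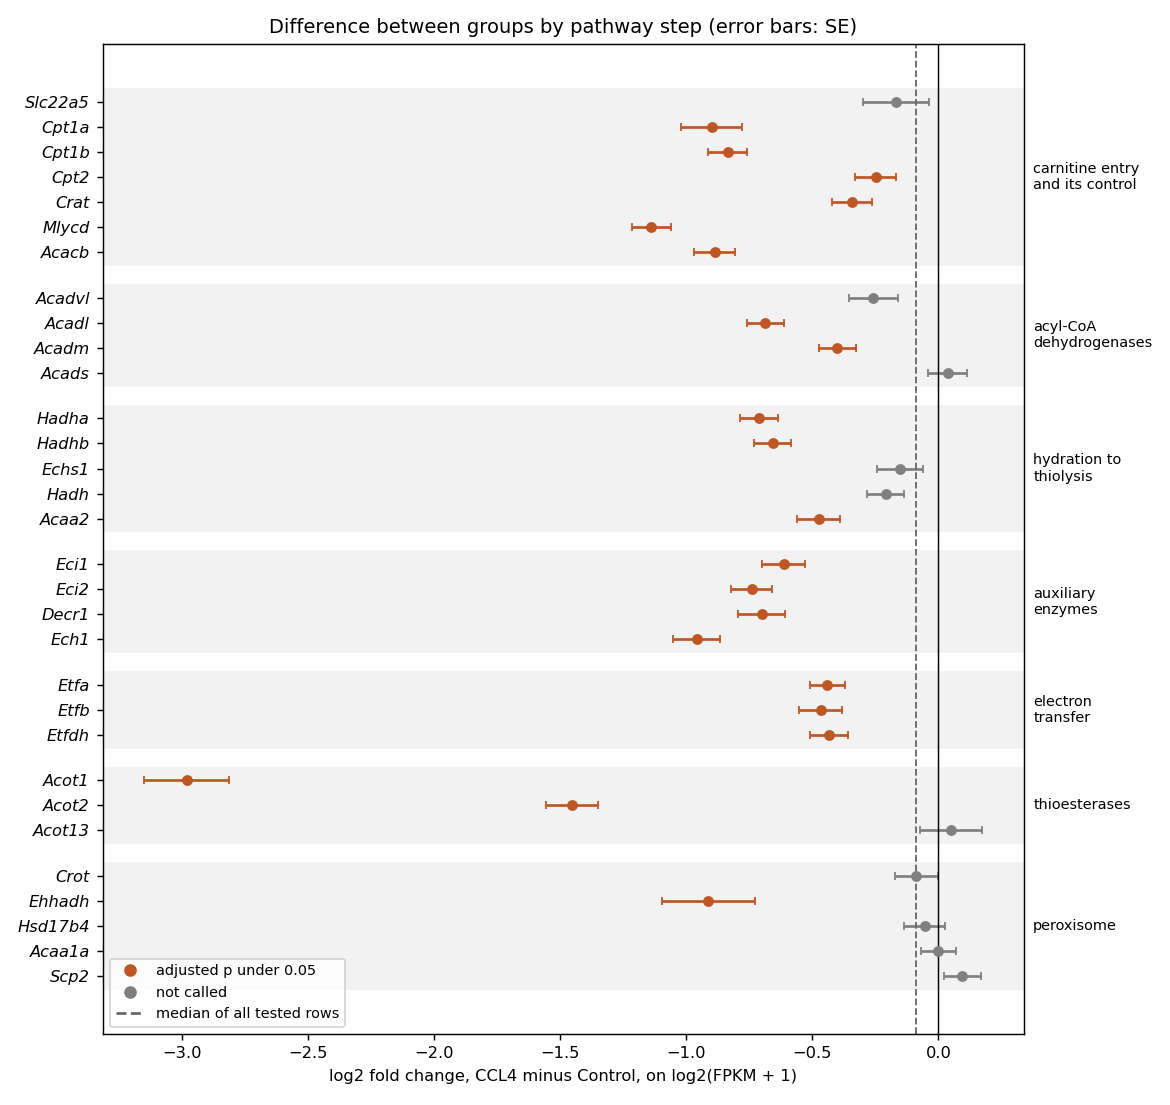
Log2 fold change, CCL4 minus Control on log2(FPKM + 1), of the 31 genes by pathway step, with SE bars. Orange points passed an adjusted p of 0.05 in limma, grey points did not, and the dashed line is the median of all tested rows at -0.09. Acot1 lies farthest to the left at -2.98, and 4 of the 5 peroxisome genes lie within 0.1 of 0.

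Among the thioesterases 2 of 3 fell, where 22.2% of all tested rows did. These 2 held the lowest log2 fold changes of the 31 genes. Acot1, the cytosolic acyl-CoA thioesterase, is a classical target of PPAR-alpha in mouse. It was at 15.1, 21.5 and 24.5 FPKM in Control against 2.03, 1.45 and 1.52 in CCL4. Acot2, its mitochondrial relative, was at 29.3, 27.3 and 35.8 FPKM in Control against 10.4, 10.6 and 10.7 in CCL4. A wide gap lay between the groups for both genes. The spread within a group was wide for Acot1, with a coefficient of variation of 23.7% in Control and 19.0% in CCL4, and for Acot2 it was 14.4% and 1.30%. Acot1 fell by 91.8% and Acot2 fell by 65.8% (log2 fold changes -2.98 ± 0.17 and -1.45 ± 0.10, SE; adjusted p = 6.94e-05 and 0.000124). Acot1 made up 33.9%, 44.0% and 40.6% of the pair's FPKM in Control and 16.3%, 12.1% and 12.5% in CCL4. The difference of -25.9 percentage points had an exact permutation p of 0.1, the smallest possible, and an adjusted p of 0.167 over 5 ratios. Acot13, the small mitochondrial thioesterase, was at 165.4, 140.9 and 130.6 FPKM in Control against 174.6, 139.3 and 139.1 in CCL4. Its groups overlapped (0.05, 95% interval -0.23 to 0.33; adjusted p = 0.774), and the sign turned to -0.10 as TPM and -0.02 with mitochondrial rows removed.

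Acot2 and Acot1 are neighbours on the plus strand of chromosome 12, at 83987861 to 83993873 and 84009490 to 84018371, with 15617 bases from the end of the first to the start of the second. Of the Acot1 transcript's 31-base words 29.2% also occur in Acot2, and 29.9% of those of Acot2 occur in Acot1, so fragments in the shared parts could be assigned to either. The 100 bases before each annotated start are shown because these neighbours had the lowest log2 fold changes. They are read 5′ to 3′ on the plus strand of GRCm38.p6 from RefSeq, at chr12:84009390-84009489 and chr12:83987761-83987860. Over the 250 bases before the RefSeq starts 50.4% of bases were identical in the aligned pair, within the 36% to 54.8% found for Acot1 against the other members' windows.
Acot1: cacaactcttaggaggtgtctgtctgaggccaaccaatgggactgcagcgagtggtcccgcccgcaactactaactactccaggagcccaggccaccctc
Acot2: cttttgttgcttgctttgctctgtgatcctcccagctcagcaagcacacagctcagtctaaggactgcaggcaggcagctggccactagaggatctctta

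Of the 5 peroxisome genes 1 fell, a share of 20% that was near the 22.2% of all tested rows. Ehhadh, the bifunctional enzyme of the inducible peroxisomal pathway and a PPAR-alpha target in rodent liver, was at 10.4, 5.68 and 6.63 FPKM in Control against 2.98, 3.70 and 3.67 in CCL4. Control replicate 1 stood above the other 2 Control libraries, all 3 were above every CCL4 library, and it fell by 54.5% (log2 fold change -0.91 ± 0.18, SE; adjusted p = 0.00805). Hsd17b4, the multifunctional enzyme for very long and branched chains, was at 24.1, 20.5 and 22.4 FPKM in Control against 22.1, 21.4 and 20.8 in CCL4. Acaa1a, the peroxisomal thiolase, was at 11.3, 11.8 and 10.9 FPKM in Control against 11.6, 11.5 and 10.9 in CCL4. Neither was called, with log2 fold changes of -0.05 (95% interval -0.24 to 0.13; adjusted p = 0.635) and -0.00014 (-0.16 to 0.16; adjusted p = 0.999), and both signs turned positive with TMM (0.02 and 0.08) and with median-ratio scaling (0.04 and 0.09). Crot, which turns shortened chains into carnitine esters for export to mitochondria, was at 5.75 to 6.81 FPKM in Control against 5.44 to 6.23 in CCL4 (-0.09, 95% interval -0.28 to 0.11; adjusted p = 0.458). Scp2, whose gene encodes a thiolase and a sterol carrier protein, was at 59.9, 66.9 and 65.1 FPKM in Control against 68.9, 69.1 and 67.0 in CCL4. It was the 1 gene with all CCL4 libraries above all Control libraries, by a narrow margin, and was not called (0.09, 95% interval -0.08 to 0.26; adjusted p = 0.357; -0.06 as TPM). Transcripts of Acaa1a and Scp2 share 43.8% and 45.4% of their 31-base words with Acaa1b and the pseudogene Scp2-ps2, whose rows held 0.17 to 0.39 and 8.71 to 11.6 FPKM.

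The peroxisome genes were set beside the 26 genes of the other steps, which include cytosolic Acot1, plasma membrane Slc22a5 and Eci2. Of these 26, 20 were called lower, where 22.2% of all tested rows were. The 5 peroxisome genes summed to 112.1, 110.6 and 111.8 FPKM in Control against 110.9, 111.9 and 108.4 in CCL4, a difference of -1.02% with overlapping groups, beside -31.1% for all 31 genes. The peroxisome share of the FPKM of all 31 genes was 2.50% ± 0.0529 in Control and 3.59% ± 0.204 in CCL4 (SD, n = 3 each). All CCL4 libraries lay above all Control libraries, and the exact permutation p was 0.1, the smallest possible (adjusted p = 0.167 over 5 ratios).

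**Figure D3:**
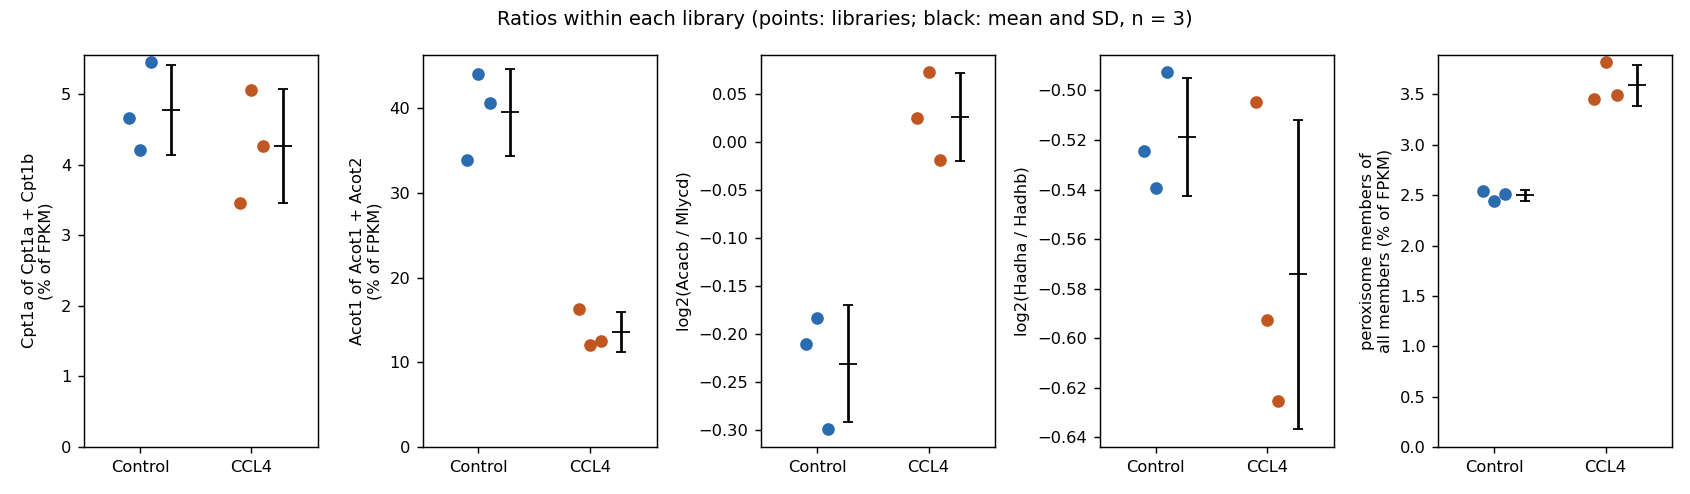
Ratios within each library, which no scaling of a whole library changes, with points for 3 Control and 3 CCL4 libraries and black bars for mean and SD. The Acot1 share of Acot1 plus Acot2 was 39.5% in Control and 13.6% in CCL4 and the peroxisome share 2.50% and 3.59%, with the groups apart (exact permutation p = 0.1, the smallest possible), while the Cpt1a share and the Hadha to Hadhb ratio overlap.

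Promoter windows from RefSeq, 250 bases before to 50 after a start on GRCm38.p6, were matched for 25 of the 31 genes, and searched on both strands. PPAR and its partner RXR bind a direct repeat of AGGTCA with 1 base between. That repeat, with any base between, was found in none of the 25 genes and in 0.0481% of all genes with a window, and the looser repeat of AGGNCA in none of the 25 and in 0.451% of all. Repeats this rare are absent from most sets of 25 genes, and sites outside the windows were not searched. Their absence here therefore says nothing on PPAR binding. A single AGGTCA, the element that many nuclear receptors bind, was found in 6 of the 25 genes and in 18.1% of all genes. Of these 6, Acacb, Acadm and Cpt1a fell, and Acadvl, Echs1 and Scp2 were not called. The 5 genes with a match before the RefSeq start of a window are shown with up to 12 bases on each side. The bases are on the gene's own strand, with the match in either orientation in capitals. They lie at chr3:153944875-153944893 (minus), chr11:70015498-70015527 (minus), chr19:3323195-3323224 (plus), chr7:140116487-140116516 (minus) and chr4:108118639-108118668 (minus), in the order shown. Those of Cpt1a and Scp2 lie inside the GENCODE spans of these genes, 3322334 to 3385733 and 108043839 to 108144998, and so after the GENCODE start.
Acadm: gTGACCTtcgggctccggt
Acadvl: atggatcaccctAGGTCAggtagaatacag
Cpt1a: cagtttccttacTGACCTcctccccgcagc
Echs1: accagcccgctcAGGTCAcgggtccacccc
Scp2: gtctaacacagtAGGTCAaaagaacccata

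A further 40 genes of fatty acid oxidation and its side paths were listed outside the 31. Of the 31 of these that were tested, 7 fell and 5 rose, with a median log2 fold change of -0.0038. The 22.6% that fell was near the 22.2% of all tested rows, and 16.1% rose beside 9.64% of all rows. Cat, the catalase that removes hydrogen peroxide in peroxisomes, fell from 122.4 ± 11.2 to 61.8 ± 2.94 FPKM (SD, n = 3 each; adjusted p = 0.000326). Hsd17b10, a mitochondrial short-chain dehydrogenase, fell from 87.4 ± 3.70 to 59.8 ± 1.48 FPKM. Acadsb, the short and branched chain acyl-CoA dehydrogenase, fell from 23.3 ± 2.18 to 16.2 ± 1.39 FPKM. Slc25a20, the carrier that takes acylcarnitine across the inner membrane, fell from 31.1 ± 2.38 to 23.2 ± 1.83 FPKM (adjusted p = 0.0115). Among the genes that rose, Decr2, the peroxisomal dienoyl-CoA reductase, went from 2.58 ± 0.247 to 4.21 ± 0.613 FPKM (adjusted p = 0.00705). The thioesterase gene Them4 rose from 1.96 ± 0.183 to 2.90 ± 0.128 FPKM, Abcd2, a peroxisomal transporter, from 0.787 ± 0.101 to 1.35 ± 0.290 FPKM, Acot8, a peroxisomal thioesterase, from 1.79 ± 0.276 to 2.63 ± 0.391 FPKM, and Nudt19, a coenzyme A hydrolase, from 12.1 ± 0.754 to 16.1 ± 1.57 FPKM. Peroxisomal genes were therefore found on both sides, with Cat and Ehhadh lower and Decr2, Abcd2 and Acot8 higher.

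Upstream of oxidation, 5 of 16 tested genes of fatty acid uptake and activation fell and 1 rose (median log2 fold change -0.14), which is 31.2% and 6.25% beside 22.2% and 9.64% of all tested rows. Slc27a1, the fatty acid transport protein FATP1, fell from 52.9 ± 1.72 to 22.0 ± 0.703 FPKM and Acss1, the mitochondrial acetyl-CoA synthetase, from 101.7 ± 15.9 to 48.8 ± 2.45 FPKM. Lpl, the lipoprotein lipase that frees fatty acids from plasma triglyceride, fell from 436.7 ± 48.0 to 237.9 ± 15.3 FPKM, and Cd36, the fatty acid translocase, from 572.6 ± 43.3 to 332.4 ± 28 FPKM. Fabp3, the heart fatty acid binding protein, fell from 1575 ± 140 to 1017 ± 92.9 FPKM. Acsl1, the main long-chain acyl-CoA synthetase of the heart, was at 81.7 ± 8.19 and 68.2 ± 5.96 FPKM and was not called (adjusted p = 0.0845). Of 18 regulators of the PPAR, PGC-1 and ERR families and their cofactors, 5 fell and 2 rose (median -0.18). These shares of 27.8% and 11.1% were near those of all tested rows, 22.2% and 9.64%. Ppargc1a, the coactivator PGC-1 alpha, fell from 16.2 ± 1.78 to 9.61 ± 0.95 FPKM (adjusted p = 0.00223) and the deacetylase gene Sirt1 from 4.68 ± 0.970 to 2.62 ± 0.507 FPKM. Pparg, the receptor best known from fat cells, fell from 4.58 ± 0.267 to 2.93 ± 0.718 FPKM, and Ncor1, a corepressor of nuclear receptors, from 8.45 ± 0.232 to 5.96 ± 0.383 FPKM. Ppara itself was at 5.01 ± 0.94 and 3.8 ± 0.547 FPKM and was not called (log2 fold change -0.32, adjusted p = 0.103). Rxrg, a partner receptor, rose from 16.0 ± 2.53 to 22.2 ± 1.83 FPKM (adjusted p = 0.0193).

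Downstream, the citric acid cycle, which burns the acetyl-CoA that beta-oxidation yields, had 1 lower and 3 higher among 18 tested genes, with a median log2 fold change of 0.03. That is 5.56% lower and 16.7% higher, beside 22.2% and 9.64% of all tested rows. Idh2, the NADP-dependent isocitrate dehydrogenase, fell from 863.4 ± 57.7 to 491.8 ± 12 FPKM. Idh3a, a subunit of the NAD-dependent enzyme, rose from 73.3 ± 10.9 to 111.7 ± 6.64 FPKM, Dlst from 38.1 ± 4.36 to 55.1 ± 3.63 FPKM and Dld from 89.2 ± 8.79 to 109.1 ± 4.45 FPKM (adjusted p = 0.00552, 0.00627 and 0.0389). The last 2 encode subunits of the oxoglutarate dehydrogenase complex. These counts are descriptions, and the difference between the lists was not tested.

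**Figure D4:**
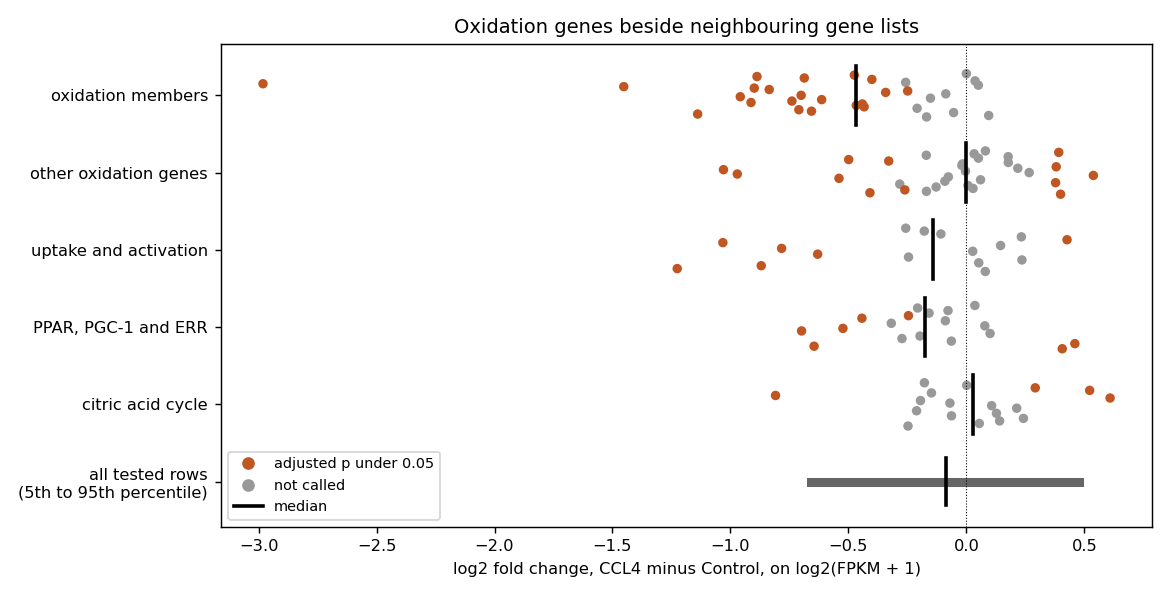
Log2 fold change, CCL4 minus Control, of tested genes in the 31 oxidation members and 4 neighbouring lists, with orange points at an adjusted p under 0.05 in limma, black lines at list medians, and a bar from the 5th to the 95th percentile (-0.66 to 0.48) of all tested rows. The members' median of -0.47 lies to the left of the other medians, which run from -0.18 to 0.03.

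Markers of other cells that use or store fat were set beside these values. Of 8 adipocyte markers, Adipoq was at 0.04 to 0.19 FPKM, Plin1 at 0.01 to 0.05 FPKM, and Lep and Ucp1 at 0 in 5 of 6 libraries each. The list summed to 15.8 to 22.8 FPKM in Control against 33.2 to 37.0 in CCL4, nearly all of it Cidea, a lipid droplet gene. Of 7 measured hepatocyte markers, Alb, Apoc3 and Serpina1a were at 0 in all libraries. Endothelial markers summed to 202.4 to 233.8 FPKM in Control against 213.5 to 233.8 in CCL4, macrophage markers to 116.8 to 152.5 and 135.6 to 151.7 FPKM, and smooth muscle and pericyte markers to 185.2 to 217.9 and 155.9 to 233.6 FPKM, all overlapping between groups with none at 0. These sums rest mostly on the abundant Fabp4, Lyz2 and Rgs5, and single markers differed. Of 8 smooth muscle and pericyte markers 3 rose and none fell, where 9.64% of all tested rows rose and 22.2% fell. The 3 were Cnn1, Cspg4 and Acta2, the last at 21.8 ± 2.37 FPKM in Control and 46.6 ± 7.97 FPKM in CCL4 (SD, n = 3 each, limma adjusted p = 0.0013). Kdr was the 1 of 8 endothelial markers that rose (adjusted p = 0.00468). Of 7 tested macrophage markers Cd68 rose (adjusted p = 0.0113) and Cd14 fell (adjusted p = 0.0171). The part of these cells in the oxidation results was not tested.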

How the data were processed

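The 6 RNA sequencing libraries were grouped by their titles. The authors deposited 1 table of FPKM values per gene and library, made with StringTie 2.1.6 on GRCm38 per the submitters' processing notes, and the sources used here do not state the aligner, annotation release, strand setting or filters. Fragment counts were not used. In low values of short single-exon genes 22.4% to 34.6% lay within 0.1 of a whole fragment, where 20% would by even spread, so no count test was run and depth is unknown. FPKM were tested as log2(FPKM + 1) with limma 3.58.1 in R 4.3.3 (trend, two-sided, no covariate), on 10995 rows with a mean of at least 1, with Benjamini-Hochberg adjustment over those rows. Fold changes on this scale understate the change of low genes. Ratios within libraries were tested by exact permutation. The members and lists were chosen with earlier results of these data known. All members are named, as are up to 5 called genes per neighbouring list with the largest change. Slc25a20, the risen genes Them4, Abcd2, Acot8 and Nudt19, Ppara, Acsl1, Adipoq, Plin1 and Cidea were named after their values were seen. So were Actc1, Myh7, Gsn, Dcn and single markers of other cells. Of 1 listed hepatocyte gene no row was used, and Mut was matched as Mmut. Positions came from GENCODE M21. TMM factors were computed directly on FPKM without precision weights. The fit was tested on simulated data. Some results of the lists are not reported here. Alternatives were other filters, another pseudocount, 4 scalings, 2 variance settings, a replicate block and leaving out each library.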

Additional observations from a re-analysis of the deposited data

How the results depend on the processing

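Of the 31 oxidation genes, 18 to 24 were called lower and none higher under the 10 alternatives that kept all libraries, and 19 to 20 were lower and 0 higher when 1 library was left out. The share of all tested rows called lower also moved, from 4.01% with no filter to 34.9% as TPM. With 1 library left out it was 14.1% to 19.3%. Cpt2 lost its call under every removal of 1 library, and also with no filter, TMM, median-ratio scaling, no trend and the replicate block. Crat lost it with no filter (adjusted p = 0.0512), TMM and median-ratio scaling and without CCL4 replicate 2, and Ehhadh with no filter (adjusted p = 0.106). With no filter the log2 fold changes of Crat and Ehhadh stayed at -0.34 and -0.91. The variance trend was fitted anew over all rows in that setting, so SE and p could move along with the adjustment. Acadvl and Hadh gained a call as TPM and with mitochondrial rows removed, and Echs1 as TPM. The cause was not tested. The median over the 31 genes was -0.47, -0.62 as TPM, -0.38 with TMM and -0.37 with median-ratio scaling, and -0.52 to -0.43 with 1 library left out. Signs turned only for genes that were not called, Acads (-0.12 as TPM, -0.036 with mitochondrial rows removed), Acot13 (-0.10 and -0.023), Scp2 (-0.059 as TPM), Hsd17b4 (0.025 with TMM, 0.039 with median-ratio scaling) and Acaa1a (0.076 and 0.089). With 1 library left out Acads ran from -0.0086 to 0.081, Acot13 from -0.058 to 0.15, Hsd17b4 from -0.11 to 0.00052 and Acaa1a from -0.026 to 0.027. Of all tested rows, 1060 were higher and 2441 lower, against 495 and 1301 with no filter and 679 and 4394 as TPM. They were 655 and 1510 with the filter raised to 5 FPKM. A change of filter altered both the number of rows tested and the fitted variances. With 1 library left out these counts were 642 to 1137 and 1546 to 2121, lowest without CCL4 replicate 3, and 648 were higher without Control replicate 2. Replicate numbers did not pair the libraries, with correlations of same-numbered deviations of -0.064, 0.046 and -0.038. With the replicate number as a block, 20 of the 31 were lower and 0 higher (median -0.47), and 861 and 1790 of all rows, and the block ended no member's call but that of Cpt2 (adjusted p = 0.0786). The ratios kept their sign with 1 library left out, from -0.917 to -0.110 points for the Cpt1a share, -28.7 to -23.7 for the Acot1 share, 0.22 to 0.28 for Acacb to Mlycd, -0.09 to -0.03 for Hadha to Hadhb and 0.977 to 1.16 points for the peroxisome share.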

Other observations

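Chkb, the choline kinase gene upstream of Cpt1b on the same strand, was at 13.2, 10.6 and 12.7 FPKM in Control against 6.07, 5.52 and 7.62 in CCL4. It fell with Cpt1b (limma adjusted p = 0.00222). Gm44502, the model that shares most Cpt1b exons, was at 2.78, 8.1 and 6.49 FPKM in Control against 3.55, 5.28 and 1.02 in CCL4, with overlapping groups (adjusted p = 0.24). Both were looked at after the Cpt1b values were seen. Cidea, a lipid droplet gene of the adipocyte list, rose from 13.4, 22.1 and 19.6 FPKM in Control to 34.5, 33.4 and 32.1 FPKM in CCL4 (limma adjusted p = 0.00599).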
